A study of Mus musculus with 27 samples.

Results

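The G1/S cyclins and their kinases were followed here as 10 genes: the D-type cyclins Ccnd1, Ccnd2 and Ccnd3, the E-type cyclins Ccne1 and Ccne2, the A-type cyclin Ccna2, the kinases Cdk2, Cdk4 and Cdk6, and the phosphatase Cdc25a. They were taken by gene symbol from the 18193 genes that the array table names, and all 10 were found. The cells were mouse foetal liver cells taken at E14.5, kept untreated in a serum-rich medium for 0, 24 or 48 h, and gene expression was measured on 27 arrays. The wild type (WT) had 3, 2 and 2 arrays at 0, 24 and 48 h. The knockout of p107 (p107KO; p107 is the product of Rbl1) had 2, 2 and 1. The knockout of Rb1 (Rb1KO) had 5, 4 and 2, and the knockout of both genes (DKO) had 2, 1 and 1. The strain, any Cre line and the altered part of either gene are not stated in the sources used. Nothing in the labels says that replicates were separate animals, so the p-values cover the spread among these arrays. Signal of Y-linked genes differed between arrays of the same group in p107KO at 0 h and 24 h and in Rb1KO at each time. The arrays of those groups were therefore not all repeats of the same RNA. In the other groups some or all of the spread may be technical.

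Cells enter S phase when cyclin-dependent kinases are switched on by their cyclins. D-type cyclins pair with Cdk4 and Cdk6 and begin to phosphorylate the pocket proteins Rb1, p107 and p130, which otherwise hold E2F transcription factors in check. Freed E2F raises the transcription of Ccne1, Ccne2, Ccna2 and Cdc25a among many others; cyclin E then binds Cdk2, Cdc25a removes the inhibitory phosphates from Cdk2, and cyclin A takes over in S phase. In the foetal liver this machinery drives the rapid divisions of red cell precursors, which leave the cell cycle as they mature. Cyclin D3 is known to set how often those precursors divide, and cyclin A2 to act in their last divisions.

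E2F binds short sequences close to the start of its target genes, so the bases before the start are shown for 4 members: the pair that rose without Rb1 and has an entry in the RefSeq promoter table (Ccne1 and Cdk2), Cdk6, which was lower, and Cdc25a, which did not pass the test in any comparison. Each is the 250 bases before the start annotated for that promoter, 5′ to 3′ on the gene's own strand, in assembly GRCm38.p6. For Cdk6 and Cdc25a that start lies inside the gene record, which begins at chr5:3341004 and chr9:109875518. Positions below count from the promoter's start and not from the first base of the gene record. They lie at chr7:38107491-38107740 on the minus strand (Ccne1), chr10:128705052-128705301 on the minus strand (Cdk2), chr5:3343643-3343892 on the plus strand (Cdk6) and chr9:109875329-109875578 on the plus strand (Cdc25a). Capitals mark letters of E2F-type motifs on either strand.
Ccne1: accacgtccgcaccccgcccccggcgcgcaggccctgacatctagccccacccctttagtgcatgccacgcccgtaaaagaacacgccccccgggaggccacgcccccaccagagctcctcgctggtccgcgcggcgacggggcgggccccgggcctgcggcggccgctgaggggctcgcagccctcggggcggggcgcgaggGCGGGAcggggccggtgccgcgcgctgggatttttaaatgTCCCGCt
Cdk2: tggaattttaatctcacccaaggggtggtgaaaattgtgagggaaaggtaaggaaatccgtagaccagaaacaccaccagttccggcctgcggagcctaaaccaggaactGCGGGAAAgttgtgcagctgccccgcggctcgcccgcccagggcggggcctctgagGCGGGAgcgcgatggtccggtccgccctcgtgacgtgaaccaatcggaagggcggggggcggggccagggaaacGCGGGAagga
Cdk6: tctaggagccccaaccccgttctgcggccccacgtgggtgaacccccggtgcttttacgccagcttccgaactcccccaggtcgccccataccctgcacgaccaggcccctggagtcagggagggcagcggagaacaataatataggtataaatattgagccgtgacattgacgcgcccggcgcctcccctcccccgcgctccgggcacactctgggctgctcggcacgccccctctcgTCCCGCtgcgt
Cdc25a: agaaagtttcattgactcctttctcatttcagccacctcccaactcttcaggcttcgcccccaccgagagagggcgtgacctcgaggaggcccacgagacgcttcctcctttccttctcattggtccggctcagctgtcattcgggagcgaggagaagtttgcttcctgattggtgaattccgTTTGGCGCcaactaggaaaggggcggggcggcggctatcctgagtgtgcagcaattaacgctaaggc

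The table held promoters for 6 members, 7 in all since Ccnd3 has 2 (the others are Ccne1, Cdk2, Cdk4, Cdk6 and Cdc25a). Windows of 300 bases, from 250 before to 50 after the start, were searched for 4 forms of the E2F site, TTTCCCGC, TTTGGCGC, TTTCGCGC and TTTGCCGC, on both strands. Such a form stood in 2 of the 6: Cdk2 at positions -140 to -133 and Cdc25a at -67 to -60 from the start. Of all 32851 promoters of that length, 2.26% held a form. The shorter core TCCCGC, which overlaps the first form, occurred 2 times in Ccne1 (-47 to -42 and -7 to -2), 3 times in Cdk2 and 2 times in Cdk6, against 20.0% of all promoters with at least 1. The E-box CACGTG, the site of Myc and related factors, stood 4 times in Cdk4 and 1 time in Cdk6 (7.15% of promoters had one). The motif of genes expressed late in the cycle, TTTGAA, was in none of the 7 (17.9% of all), and CCAAT was in the second Ccnd3 promoter, in Cdk2 and in Cdc25a (37.4% of all). These matches describe the letters only. Of the members with a full form, Cdk2 rose without Rb1 and Cdc25a did not pass. Of those with the core only, Ccne1 rose and Cdk6 fell.

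The values are MAS5 signals on a linear scale; differences are given as log2 of (signal + 32) with the standard error (SE) of a limma fit over all arrays, and a gene is said to rise, fall or pass where its Benjamini-Hochberg adjusted p over the 10916 genes tested is under 0.05. The arrays had been scaled to near-equal brightness before deposit (trimmed means 491.1 to 497.5), and array data have no read depth, so the number of arrays limits the precision. The members are represented by 29 probe sets, and each gene by its brightest; by that probe set all 10 passed the filter on dim genes, with mean signals from 909.5 (Ccnd1) to 13892.3 (Ccna2). Probe sets differ in how they bind, so levels are compared between arrays and never between genes. The labels were checked on the targeted genes. Rbl1 read 1619 ± 110 (SD, n = 3) in WT at 0 h, 112.8 ± 6.01 (n = 2) in p107KO and 85.9 ± 1.98 (n = 2) in DKO, and stayed at or below 167.5 on every array labelled p107KO or DKO. Rb1 read 6609 ± 482 (n = 3) in WT and 2109 ± 481 (n = 5) in Rb1KO at 0 h, but 6164 ± 592 (n = 2) and 4830 ± 881 (n = 2) at 48 h, a difference of -0.36 ± 0.24 (limma adjusted p = 0.408), and 5994 on the DKO array. Whether this probe set lies within the altered part of the gene was not stated in the labels. Rb1 signal thus does not check the genotype at 48 h, and directions drawn at that time rest on the labels. Y-linked signal was present on all 4 DKO arrays, on 3 of 11 Rb1KO and 2 of 5 p107KO arrays and on 0 of the 7 WT arrays. At 0 h Rb1KO replicate 5 correlated least with the other arrays (median r 0.953). At 24 h the same held for the arrays numbered 1 of Rb1KO (0.938), p107KO (0.947) and DKO (0.951), though arrays at 48 h went as low as 0.943. These 4 are called the least correlated arrays of 0 h and 24 h below. Rb1KO 0 h replicate 5 gave the group's lowest signal in Ccnd1, Ccnd2, Ccnd3, Ccne1, Cdk2, Cdk4 and Cdk6 and its highest in Ccne2 and Ccna2. The labelled tissue was checked on its markers. Erythroid markers (11 of 14 measured) summed to between 153094 and 357917 on every array. Hepatocyte markers (14 of 16 measured) summed to between 209489 and 303142 at 0 h.

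**Figure D1:**
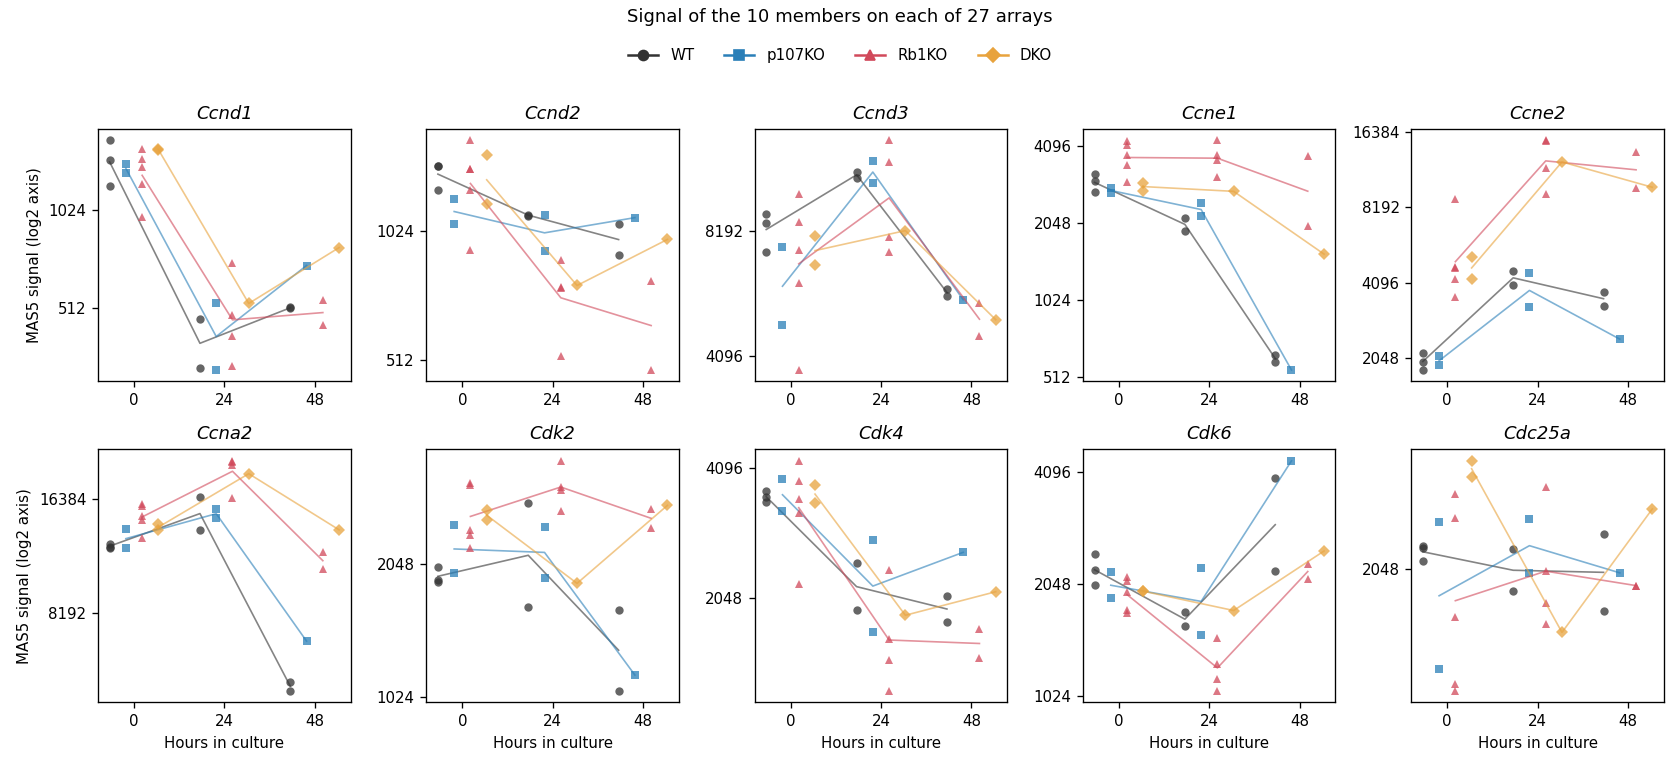
MAS5 signal of each member (log2 axis, scale differing by panel) on each of the 27 arrays against hours in culture. Points are arrays, shifted sideways by genotype, and lines join the group means on the log scale. The Rb1KO and DKO arrays lie above every WT and p107KO array of the same time in Ccne2, and at 48 h also in Ccne1, Ccna2 and Cdk2.

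Without Rb1, the cyclins and the kinase that act at S phase entry were higher and the D-type side was lower or did not pass. Averaged over the 3 culture times, Ccne2, Ccne1, Cdk2 and Ccna2 rose in Rb1KO against WT and Ccnd2 and Cdk6 fell, 6 of 10 members. The 4 that rose compare with 10.4% of all genes that rose, the 2 that fell with 8.66% that fell, and 19.0% passed in either direction. Ccnd1, Ccnd3, Cdk4 and Cdc25a did not pass (log2 differences of 0.01, -0.22, -0.25 and -0.12). The median difference of the 10 members was -0.05 and that of all genes -0.07.

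Ccne2, an E-type cyclin that activates Cdk2, differed most among the members on average over the times, though at 48 h Ccne1 differed more. At 0 h its signal was 1984, 1839 and 2153 on the WT arrays and 4756, 4246, 4709, 3605 and 8865 on the Rb1KO arrays. At 24 h WT read 4582 and 4011 and Rb1KO 15050, 9246, 11735 and 15199, and at 48 h WT read 3325 and 3767 and Rb1KO 9828 and 13607. Every Rb1KO array was above every WT array of its time. The log2 difference was 1.31 ± 0.21 at 0 h, 1.54 ± 0.25 at 24 h and 1.70 ± 0.29 at 48 h (limma adjusted p = 0.00189, 4.63e-04 and 3.89e-04). Over the times it was 1.52 ± 0.15 (SE; 95% interval 1.21 to 1.82; limma adjusted p = 1.35e-07), a 2.86-fold rise. Its change from 0 h to 48 h, 0.39 ± 0.36, did not pass (limma adjusted p = 0.746), so no drift of the difference with culture was detected for Ccne2, with an interval of -0.36 to 1.15. At 0 h Ccne2 was the only member to pass, in a comparison where 0.614% of all genes did.

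Ccne1, the other E-type cyclin, differed little at the start and widely at the end. At 0 h WT read 2969, 3168 and 2709 and Rb1KO 4116, 3773, 3438, 4276 and 2961, where only the lowest Rb1KO array, replicate 5, lay within the WT range. At 24 h WT read 1899 and 2142 and Rb1KO 3748, 3603, 4306 and 3079. At 48 h WT read 621 and 587 and the arrays labelled Rb1KO 1986 and 3719, so the groups were apart at 24 h and 48 h, and these last Rb1KO arrays also differed widely from each other. The log2 difference was 0.32 ± 0.16 at 0 h (limma adjusted p = 0.76), 0.85 ± 0.19 at 24 h (limma adjusted p = 0.00686) and 2.11 ± 0.22 at 48 h (limma adjusted p = 7.83e-07), a 4.33-fold rise at 48 h. Between 0 h and 48 h the gap itself grew by 1.79 ± 0.27 (95% interval 1.23 to 2.36; limma adjusted p = 4.20e-04). That growth did not pass without the 9 arrays with Y-linked signal, which leaves 1 Rb1KO array at 48 h (1.32, limma adjusted p = 0.0728). The 24 h call was lost when replicate 1 of WT at 24 h was left out (0.76, limma adjusted p = 0.103) or with the mean over both probe sets (0.57, limma adjusted p = 0.238).

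A second probe set of Ccne1, whose name marks it as able to bind related transcripts, gave 0.70 ± 0.26 over the times (limma adjusted p = 0.076 over all probe sets) and 0.40 ± 0.65 for the change from 0 h to 48 h (limma adjusted p = 0.894). It read 8559 on Rb1KO 0 h replicate 4 against 1520 to 2560 on the other Rb1KO arrays of that time. At 48 h it read 1285 and 1311 in WT and 3155 and 2528 in Rb1KO, again apart. The growth of the Ccne1 difference with time therefore rests on the brightest probe set: with the mean of both probe sets it was 1.10 (limma adjusted p = 0.158).

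Ccna2, the cyclin of S phase, followed at smaller size. At 0 h it read 12170, 12286 and 12483 in WT and 12946 to 15881 in Rb1KO, with a median of 14754. At 24 h WT read 16572 and 13604 and Rb1KO 20204, 16549, 20574 and 20696. At 48 h WT read 5393 and 5108 and the arrays labelled Rb1KO 10700 and 11874. The groups did not overlap at 0 h and 48 h, and at 24 h only Rb1KO replicate 2 reached down to the WT range. The log2 difference was 0.26 ± 0.11 at 0 h and 0.37 ± 0.13 at 24 h (limma adjusted p = 0.636 and 0.0863), and 1.10 ± 0.15 at 48 h (limma adjusted p = 2.98e-05), a 2.14-fold rise. Over the times it was 0.57 ± 0.08 (limma adjusted p = 9.00e-06). The change from 0 h to 48 h was 0.84 ± 0.19 (limma adjusted p = 0.0108). That call was lost without the arrays with Y-linked signal (0.77, limma adjusted p = 0.193), without WT 48 h replicate 2 (0.80, limma adjusted p = 0.0661), without Rb1KO 48 h replicate 2 (0.77, limma adjusted p = 0.0997) with the mean over probe sets (0.59, limma adjusted p = 0.0556) and on the second probe set (0.33 ± 0.20, limma adjusted p = 0.539). The second probe set still rose over the times (0.41 ± 0.08, limma adjusted p = 0.00101).

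Cdk2, the kinase that cyclins E and A activate, read 1866, 2025 and 1888 in WT and 2229 to 3136 in Rb1KO at 0 h, without overlap. At 24 h WT read 1636 and 2821 and Rb1KO 2712 to 3521, and at 48 h WT read 1058 and 1617 and the arrays labelled Rb1KO 2478 and 2742. The groups overlapped at 24 h, through WT replicate 2, and were apart at 48 h. Over the times Cdk2 rose by a log2 difference of 0.64 ± 0.12 (limma adjusted p = 4.21e-04), and at 48 h by 0.98 ± 0.23 (limma adjusted p = 0.00761). The 0 h and 24 h differences, 0.45 ± 0.17 and 0.51 ± 0.20, did not pass (limma adjusted p = 0.534 and 0.135). The 48 h call did not hold without WT 48 h replicate 1 (0.68, limma adjusted p = 0.155), without Rb1KO 48 h replicate 2 (0.91, limma adjusted p = 0.0896) or without the arrays with Y-linked signal (0.91, limma adjusted p = 0.175), nor with only those groups in the fit (limma adjusted p = 0.0553). The second Cdk2 probe set was dim (mean signal 17.6) and left out by the filter.

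Across the members, 2 passed at 24 h (Ccne1 and Ccne2) where 7.77% of all genes did, and 4 at 48 h (Ccne1, Ccne2, Ccna2 and Cdk2) where 10.4% did. The change from 0 h to 48 h passed for 2 members, Ccne1 and Ccna2, against 3.53% of all genes. From 24 h to 48 h no member's change passed by limma, and 0.0458% of all genes did; 2 members, Ccne1 (1.26 ± 0.29) and Ccna2 (0.73 ± 0.20), had an unadjusted p under 0.05. The comparisons at single times and the average over times use the same arrays and are not independent of each other.

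**Figure D2:**
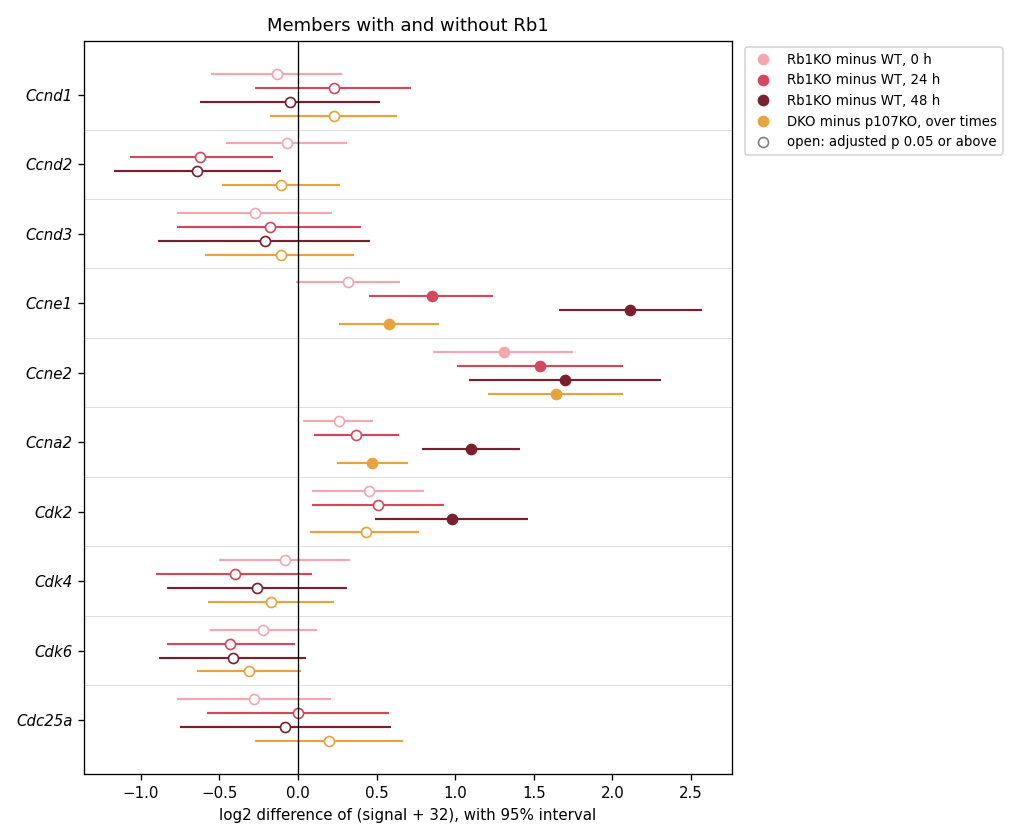
Log2 difference of (signal + 32) for each member in Rb1KO against WT at 0, 24 and 48 h and in DKO against p107KO averaged over the times. Points are limma estimates with 95% intervals, filled where the adjusted p is under 0.05. Ccne2 is filled in all 4 comparisons, and Ccne1 moves from 0.32 at 0 h to 2.11 at 48 h.

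Ccnd2, a D-type cyclin of blood progenitors among other cells, fell in Rb1KO on average over the times. At 0 h it read 1277, 1457 and 1452 in WT and 925 to 1673 in Rb1KO. At 24 h WT read 1113 and 1120 and Rb1KO 752, 876, 759 and 524, and at 48 h WT read 901 and 1064 and Rb1KO 485 and 783. All Rb1KO arrays lay below the WT arrays at 24 h and 48 h, and the groups overlapped at 0 h. Over the times Ccnd2 fell by a log2 difference of 0.44 ± 0.13 (limma adjusted p = 0.0177). At single times it did not pass, with -0.07 ± 0.19 at 0 h, -0.62 ± 0.22 at 24 h and -0.64 ± 0.25 at 48 h (limma adjusted p = 0.972, 0.0891 and 0.122), nor did its change from 0 h to 48 h (-0.57 ± 0.31, limma adjusted p = 0.459). The 5 Ccnd2 probe sets brighter than the filter gave differences from -0.44 to -0.61, and 4 of them passed. The call was lost without WT 48 h replicate 2 (-0.40, limma adjusted p = 0.0585), without Rb1KO 48 h replicate 1 (-0.33, limma adjusted p = 0.0829) and with the mean over all probe sets (-0.36, limma adjusted p = 0.0598).

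Cdk6, a kinase partner of the D-type cyclins, read 2466, 2241 and 2034 in WT and 1712 to 2142 in Rb1KO at 0 h. At 24 h WT read 1722 and 1578 and Rb1KO 1135, 1251, 1058 and 1468, all below WT, and at 48 h WT read 3954 and 2218 and Rb1KO 2314 and 2121. Over the times Cdk6 fell by 0.35 ± 0.11 (limma adjusted p = 0.0312), with WT 48 h replicate 1 the highest of the arrays compared. Without that array the difference was -0.22 (limma adjusted p = 0.187); it also failed without Rb1KO 48 h replicate 2 (-0.33, limma adjusted p = 0.0954), without each WT 24 h array (-0.33 and -0.37, limma adjusted p = 0.0833 and 0.0525), without WT 0 h replicate 1 (-0.33, limma adjusted p = 0.0635), without Rb1KO 24 h replicate 3 (-0.33, limma adjusted p = 0.0502), with Y-linked signal as a covariate (-0.31, limma adjusted p = 0.0834) and without the arrays that carry it (-0.34, limma adjusted p = 0.141). The second Cdk6 probe set gave -0.42 ± 0.17 (limma adjusted p = 0.0931).

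Markers of other cells differed between the same Rb1KO and WT arrays, on which both these falls and the rises above were read. The summed signal of 9 measured stem and progenitor markers was 4027 to 5538 in Rb1KO and 5899 to 7713 in WT at 0 h, 4155 to 6292 and 8786 to 10498 at 24 h, and 6911 to 7491 and 14296 to 20790 at 48 h, apart at each time. Of the 8 markers tested, 2 fell over the times. For megakaryocyte markers the sums were 16963 to 29366 and 26424 to 37005 at 0 h, 11864 to 18755 and 15715 to 25816 at 24 h, and 45704 to 62814 and 69827 to 73926 at 48 h, apart only at 48 h, and 6 of 9 fell. None of the markers in either list was below 100 on every array. At 48 h 3 of 14 hepatocyte markers fell and 0 rose, with a median of -1.33 against -0.09 for all genes. Their sums overlapped, at 4907 to 17608 in Rb1KO and 11326 to 43672 in WT. The part of these cells in the falls of Ccnd2 and Cdk6 and in the rises of Ccne1, Ccne2, Ccna2 and Cdk2 was not tested. In bulk samples fewer cells of a type and less RNA per cell cannot be told apart.

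The remaining members did not pass against WT. Ccnd1, the D-type cyclin most tied to growth factor signals, read 1463, 1685 and 1220 in WT and 978 to 1585 in Rb1KO at 0 h, and its 3 probe sets gave differences over the times of 0.01, 0.08 and -0.08. Ccnd3, the D-type cyclin of the erythroid line, gave -0.22 ± 0.16 (95% interval -0.56 to 0.12; limma adjusted p = 0.362). Cdk4 gave -0.25 ± 0.14 (95% interval -0.53 to 0.04; limma adjusted p = 0.216), and its 3 probe sets lay close together at -0.25, -0.24 and -0.18. Cdc25a varied within groups, from 1256 to 2781 among Rb1KO arrays at 0 h, and its brightest probe sets differed in sign (-0.12 ± 0.16 and 0.18 ± 0.11). The intervals of Ccnd3, Cdk4 and Cdc25a still hold falls of the size found for Cdk6.

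**Figure D3:**
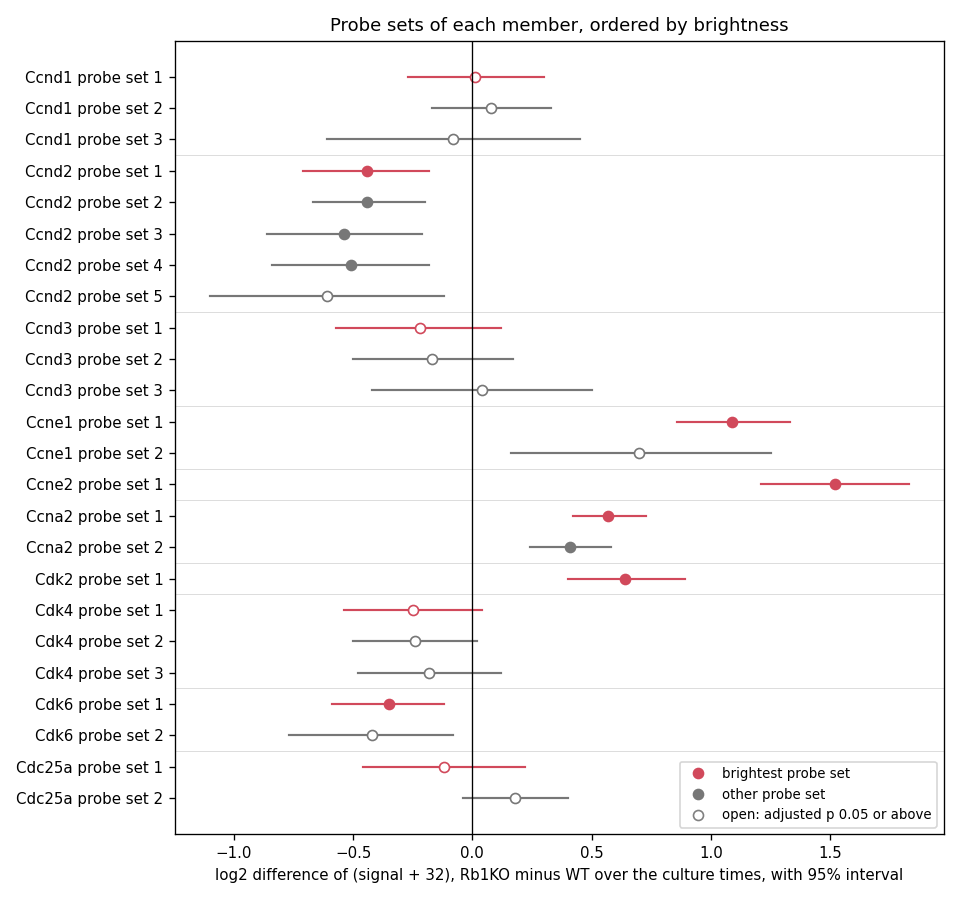
Log2 difference between Rb1KO and WT, as the mean of the 3 times, for the 24 member probe sets in the fit of single probe sets, grouped by gene and ordered by mean signal. Points are limma estimates with 95% intervals, red for the brightest probe set of a gene and filled where the adjusted p over all probe sets is under 0.05. The 5 Ccnd2 probe sets lie between -0.61 and -0.44, while those of Cdc25a fall on both sides of 0.

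Loss of p107 by itself changed no member detectably. In p107KO against WT over the times, 0 of 10 members passed by limma, none had an unadjusted p under 0.05, and 0.0183% of all genes passed. The differences ran from -0.23 ± 0.18 (Ccne2) to 0.20 ± 0.14 (Cdk6). For Ccne2 the p107KO arrays read 1922 and 2084 at 0 h, 4465 and 3265 at 24 h and 2441 at 48 h, the last of them below both WT arrays. For Ccne1 they read 2685 and 2789, then 2450 and 2168, then 544. The 95% intervals, -0.60 to 0.14 for Ccne2 and -0.30 to 0.26 for Ccne1, do not reach the rises found without Rb1.

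With p107 absent from both sides, the DKO was set against p107KO, a comparison that shares no array with Rb1KO against WT. Ccne2, Ccne1 and Ccna2 rose, 3 of 10 members, against 7.13% of all genes that passed in either direction. Ccne2 read 4255 and 5182 in DKO at 0 h, 12431 at 24 h and 9852 at 48 h, each above the p107KO arrays of its time, and rose by 1.64 ± 0.21 (limma adjusted p = 2.08e-05). Ccna2 read 14094, 13554, 19140 and 13600 on the DKO arrays against 12191, 13633, 15421, 14601 and 6909 in p107KO, with a slight overlap at 0 h, and rose by 0.47 ± 0.11 (limma adjusted p = 0.00612). Ccne1 rose by 0.58 ± 0.16 (limma adjusted p = 0.0226), with 1544 against 544 at 48 h and overlap at 0 h. Without either single array at 48 h, which takes that time out of the average, Ccne1 gave 0.14 (limma adjusted p = 0.804) and Ccna2 0.23 (limma adjusted p = 0.431 without p107KO and 0.432 without DKO). Ccne1 also failed with the mean over its probe sets (0.40, limma adjusted p = 0.36), with Y-linked signal as a covariate (0.49, limma adjusted p = 0.139), without p107KO 0 h replicate 1 (0.57, limma adjusted p = 0.05) and without DKO 0 h replicate 2 (0.56, limma adjusted p = 0.0555). Hepatocyte markers moved in the same comparison, with 6 of 14 lower in DKO (sum at 48 h 3312 against 27002); their part was not tested.

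Cdk2 gave 0.43 ± 0.17 in DKO against p107KO (limma adjusted p = 0.143). Without DKO 24 h replicate 1, at 1855 the lowest Cdk2 reading of the genotype, the difference was 0.75 (limma adjusted p = 0.0398). Leaving out that single array takes 24 h out of the average, so the 0.75 covers 0 h and 48 h only. Ccnd2 (-0.11 ± 0.18) and Cdk6 (-0.31 ± 0.16), which fell in Rb1KO, did not pass here. That these 2 passed in one comparison and not in the other was not tested as a difference.

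At 0 h, before culture, no member passed in DKO against WT by limma, in a comparison where 0.183% of all genes did, and 2 members, Ccne2 and Cdk2, had an unadjusted p under 0.05. Ccne2 was the nearest, with 4255 and 5182 against 1839 to 2153 in WT, a log2 difference of 1.23 ± 0.27 (limma adjusted p = 0.0579). It passed under 6 of 17 alternatives and not under the others. Among the 6 was the fit without the least correlated arrays of 0 h and 24 h (1.23, limma adjusted p = 0.00198). It also passed with only the groups compared in the fit (1.23, limma adjusted p = 0.00168) and after quantile normalization (1.31, limma adjusted p = 0.0233). All DKO arrays and no WT array carried Y-linked signal, so genotype and that signal cannot be told apart here.

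Adding the loss of p107 to that of Rb1 gave no call among the members. In DKO against Rb1KO over the times 0 of 10 passed by limma, 1 had an unadjusted p under 0.05, and 0.999% of all genes passed. That member was Ccne1. By its brightest probe set it was lower in DKO on every array at each time. DKO read 2734 and 2936 at 0 h, 2714 at 24 h and 1544 at 48 h, against at least 2961, 3079 and 1986 in Rb1KO. The second probe set overlapped at 0 h (1707 to 2167 in DKO, 1520 to 8559 in Rb1KO) and at 24 h (3231 and 2244 to 5266). At 48 h it read 1846 in DKO and 2528 to 3155 in Rb1KO. By the brightest probe set the Ccne1 difference was -0.53 ± 0.14 (95% interval -0.82 to -0.25; limma adjusted p = 0.0581). It passed under 4 of 27 alternatives, with a limma adjusted p of up to 0.621 under the others. Among the 4 were leaving out Rb1KO 0 h replicate 5 (-0.56, limma adjusted p = 0.0257) and leaving out Rb1KO 48 h replicate 1 (-0.68). Ccne2 gave -0.11 ± 0.18 and Ccna2 0.05 ± 0.09 in the same comparison. The Rb1KO arrays here are those compared with WT above. Y-linked signal was on all 4 DKO arrays and on 3 of 11 Rb1KO arrays, so genotype and that signal largely go together in this comparison.

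Culture by itself moved most of the members, in step with wide changes across the array. From 0 h to 24 h in WT, Ccne2 rose and Ccnd1, Ccne1 and Cdk4 fell, 4 of 10 members where 38.1% of all genes passed. In Rb1KO, with 4 and 5 arrays and thus more power, Ccne2, Ccna2 and Ccnd3 rose and Ccnd1, Cdk4, Ccnd2 and Cdk6 fell, 7 of 10 members where 52.2% passed. The shares of members lie near those of all genes.

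Ccnd1 fell from 1463, 1685 and 1220 to 474 and 334 in WT, by 1.78 ± 0.25 (limma adjusted p = 6.88e-06), and from 978 to 1585 down to 338 to 705 in Rb1KO, by 1.42 ± 0.18 (limma adjusted p = 1.18e-06), without overlap in either genotype. Its other probe sets also fell in WT, with log2 differences of -1.73 ± 0.22 and -2.93 ± 0.46. Cdk4, its kinase partner, fell from 3430 to 3620 down to 1925 and 2464 in WT, by 0.68 ± 0.25 (limma adjusted p = 0.0346), and in Rb1KO by 1.00 ± 0.18 (limma adjusted p = 8.83e-05). The WT call for Cdk4 was lost without any one of the 5 arrays (differences of -0.51 to -0.86, limma adjusted p = 0.0504 to 0.254). Over the 12 group means Cdk4 had a Pearson r of 0.898 with Ccnd1, 0.901 with Ccnd2 and -0.052 with Ccnd3. These values describe groups that share the culture times.

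Ccne2 rose in WT by 1.10 ± 0.27 (limma adjusted p = 0.00251) and in Rb1KO by 1.33 ± 0.20 (limma adjusted p = 6.92e-06), from 3605 to 8865 up to 9246 to 15199 in the latter. Ccne1 fell in WT by 0.54 ± 0.20 (limma adjusted p = 0.0381) and gave -0.01 ± 0.15 in Rb1KO. The WT fall of Ccne1 had the opposite sign with the mean over its probe sets (0.01, limma adjusted p = 0.984) and was lost without either WT 24 h array (-0.45 and -0.62, limma adjusted p = 0.209 and 0.0806) or without WT 0 h replicate 1 or 2 (-0.53 and -0.49, limma adjusted p = 0.0788 and 0.106). Ccnd2 fell in Rb1KO by 0.86 ± 0.17 (limma adjusted p = 2.16e-04) against -0.31 ± 0.23 in WT, and Cdk6 by 0.64 ± 0.15 (limma adjusted p = 0.00112) against -0.44 ± 0.20. Ccnd3 rose in Rb1KO by 0.53 ± 0.22 (limma adjusted p = 0.0488), which 8 of 22 alternatives called. The call was lost with the replicate block (0.31, limma adjusted p = 0.134), after quantile normalization (0.33, limma adjusted p = 0.247), without replicate 5 at 0 h (0.31, limma adjusted p = 0.159), without replicates 1 or 3 at 0 h (0.49 and 0.55, limma adjusted p = 0.0931 and 0.0572) and without replicates 2 or 3 at 24 h (0.43 and 0.37, limma adjusted p = 0.139 and 0.188), and the sign turned with the mean over its probe sets (-0.04, limma adjusted p = 0.847). Ccna2 rose there by 0.40 ± 0.10 (limma adjusted p = 0.00217), but by 0.14 after quantile normalization (limma adjusted p = 0.185), which moved the median of all genes from -0.09 to 0.00 in this comparison.

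Over the same day markers of other liver cells moved widely. In WT the hepatocyte sum went from 236983 to 279619 at 0 h down to 7947 to 7972 at 24 h, the mesenchymal sum from 11916 to 17246 down to 615 to 884, and the endothelial sum from 5996 to 7211 down to 689 to 933. All 14 hepatocyte markers, all 10 mesenchymal markers and 9 of 10 endothelial markers fell. The macrophage sum went from 16066 to 18805 down to 7937 to 12112, with 6 of 11 markers lower and 1 higher. In the megakaryocyte list 6 of 9 were lower and 1 was higher. Neutrophil and mast cell markers went the opposite way. The neutrophil sum went from 86220 to 114296 up to 172028 to 225218 (3 of 9 markers rose). The mast cell sum went from 986 to 1176 up to 2853 to 3118 (4 of 5 rose). In the erythroid list 5 of 10 were higher and 1 was lower. The list for stem cells and progenitors was mixed. By gene, 4 of its 8 tested entries were lower and 1 was higher, with a median of -0.68. Its summed signal still went from 5899 to 7713 up to 8786 to 10498. The part of these cells in the changes of the members was not tested.

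From 24 h to 48 h in WT Ccne1, Ccna2, Cdk2 and Ccnd3 fell and Cdk6 rose, 5 of 10 members where 25.4% of all genes passed, while Ccne2 (-0.27 ± 0.29) and Cdc25a (-0.01 ± 0.32) did not pass. Ccne1, from 1899 and 2142 to 621 and 587, changed by -1.69 ± 0.22 (limma adjusted p = 1.77e-05). Ccna2, from 16572 and 13604 to 5393 and 5108, changed by -1.51 ± 0.15 (limma adjusted p = 9.01e-07). Ccnd3, from 11042 and 11383 to 5720 and 5960, changed by -0.94 ± 0.33 (limma adjusted p = 0.0385), and Cdk2 fell by 0.70 ± 0.23 (limma adjusted p = 0.0311). Cdk6 rose by 0.83 ± 0.22 (limma adjusted p = 0.00883), from 1722 and 1578 to 3954 and 2218. The calls for Ccne1 and Ccna2 held without each of the arrays, and Ccnd3 was lost without any one of the 4 (-0.91 to -0.97, limma adjusted p = 0.11 to 0.149) and with the mean over its probe sets (-0.13, limma adjusted p = 0.689). Cdk2 was lost without WT 24 h replicate 2 (-0.32, limma adjusted p = 0.463) or 48 h replicate 1 (-0.40, limma adjusted p = 0.332), and Cdk6 without the same arrays (0.77 and 0.42, limma adjusted p = 0.0737 and 0.233) and with only those groups in the fit (limma adjusted p = 0.0519). With the mean over probe sets Cdk2 gave -0.45 (limma adjusted p = 0.244). Ccnd1, at 0.34 ± 0.28, did not pass by its brightest probe set, while its other 2 probe sets rose (0.75 ± 0.24 and 1.84 ± 0.51, limma adjusted p = 0.0329 and 0.0138). The megakaryocyte sum rose in WT from 15715 to 25816 at 24 h to 69827 to 73926 at 48 h, with 9 of 9 markers higher. Over the same interval 7 of 11 macrophage and 6 of 9 neutrophil markers rose, and 3 of 10 erythroid markers (Klf1, Epor and Ermap) fell, with a median over the list of -0.34. Of the stem and progenitor markers 4 of 8 rose, as did 5 of 10 mesenchymal and 4 of 14 hepatocyte markers, and 0 in these lists fell. The part of these cells in the changes of Cdk6, Ccne1 and Ccna2 was not tested.

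In Rb1KO over the same interval Ccna2 and Ccnd3 fell and Cdk6 rose, 3 of 10 members where 21.1% of all genes passed. Ccna2 fell by 0.78 ± 0.13 (limma adjusted p = 2.09e-04) and Ccnd3 by 0.97 ± 0.28 (limma adjusted p = 0.0173), while Cdk6 rose by 0.85 ± 0.19 (limma adjusted p = 0.00325). In the same comparison 8 of 9 megakaryocyte, 9 of 11 macrophage and 7 of 9 neutrophil markers rose and 5 of 10 erythroid markers fell (median -0.48). Of the other lists, 2 of 8 stem and progenitor, 3 of 5 mast cell, 2 of 10 endothelial and 1 of 10 mesenchymal markers rose, and 1 of 14 hepatocyte markers fell. The part of these cells was not tested. The Ccnd3 call was lost without Rb1KO 24 h replicate 3 (-0.81, limma adjusted p = 0.0551) or 48 h replicate 1 (-0.83, limma adjusted p = 0.2), and the Cdk6 call without the latter (0.78, limma adjusted p = 0.0699). With the mean over probe sets neither passed (Ccnd3 -0.33 and Cdk6 0.50, limma adjusted p = 0.212 and 0.133). Ccne1 gave -0.42 ± 0.19 (limma adjusted p = 0.12); without Rb1KO 48 h replicate 2, which read 3719 against 1986 for the other, it fell by 0.87 (limma adjusted p = 0.00438). Ccne2 did not pass in either genotype (-0.27 ± 0.29 in WT and -0.12 ± 0.25 in Rb1KO). The difference between the genotypes' changes over this interval passed for no member, as given above; without Rb1KO 48 h replicate 1 that of Ccne1 was 1.71 (limma adjusted p = 0.00836).

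**Figure D4:**
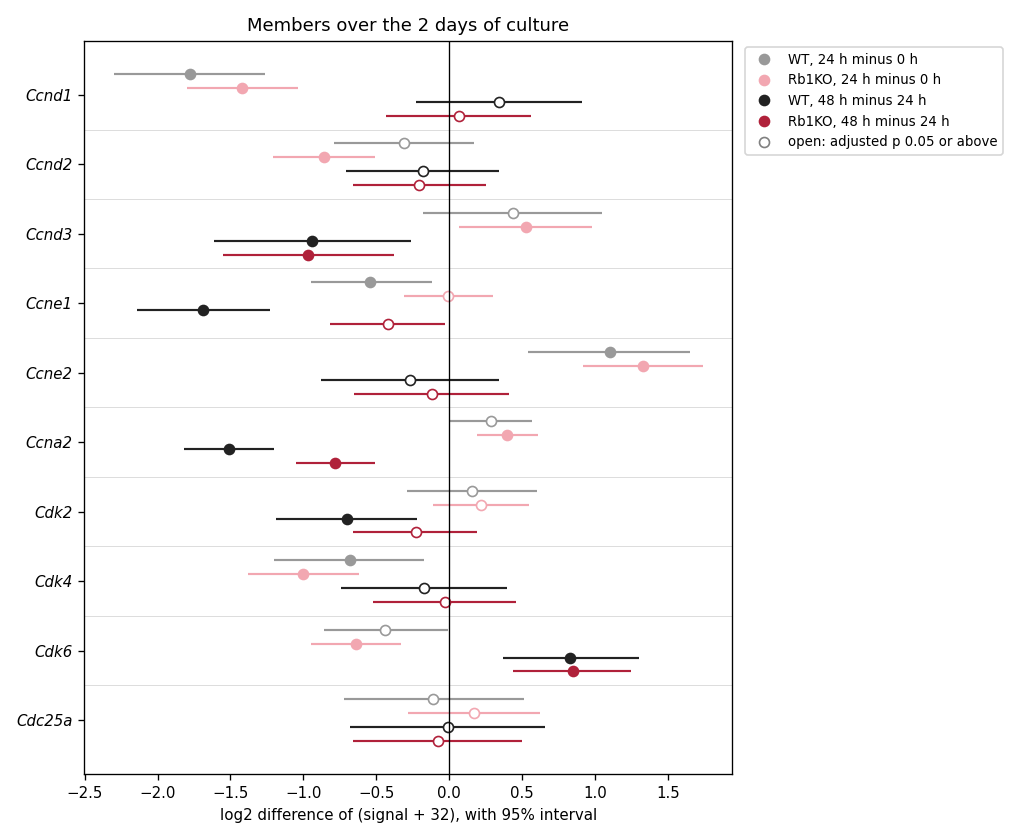
Log2 change of (signal + 32) for each member from 0 h to 24 h and from 24 h to 48 h in WT and Rb1KO. Points are limma estimates with 95% intervals, filled where the adjusted p is under 0.05. Ccnd1 falls on the first day in both genotypes, and on the second day Ccne1 falls by 1.69 in WT and stands at -0.42 in Rb1KO.

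In order of level, Ccne2 had its 4 highest group means in Rb1KO at 24 h (12808), DKO at 24 h (12431), Rb1KO at 48 h (11718) and DKO at 48 h (9852), which overlapped each other, then a gap to Rb1KO at 0 h (5236) and the lowest in WT at 0 h (1992). Ccne1 ran from Rb1KO at 0 h (3713) and 24 h (3684), which overlapped, down to DKO (1544), WT (604) and p107KO (544) at 48 h, each apart from the next. Ccna2 was highest in Rb1KO (19506) and DKO (19140) at 24 h and lowest in p107KO (6909) and WT (5251) at 48 h. Ccnd1 had all 4 groups at 0 h on top (1330 to 1574, overlapping) and WT at 24 h at the bottom (404). Cdk6 was highest in p107KO (4400, 1 array) and WT (3086) at 48 h and lowest in Rb1KO at 24 h (1228). The genes most like the members over the 12 group means were Rpain (r = 0.984) and Gmnn (0.981) for Ccna2, Icam4 (0.982) and Tlcd1 (0.969) for Ccne1, Purb (0.972) and Faf1 (0.97) for Ccne2, Rtp3 (0.983) and Gnptab (0.979) for Ccnd1, Aida (0.959) and Rprd1b (0.956) for Cdk2, and Polr1b and Noa1 (both 0.993) for Cdk4. For Ccnd2 they were Trmt6 (0.959) and Pigt (0.953), for Ccnd3 Xpnpep1 (0.94) and Lcmt1 (0.936), and for Cdk6 Ctla2b (0.964) and Nlk (0.959). Cdc25a had no close match (0.726 for Cog8 and Prpf4). Among the members themselves Ccne1 and Ccna2 had r = 0.862, Ccne1 and Cdk2 0.823, and Ccna2 and Cdk6 -0.849. These are descriptions over group means that share culture times and genotypes.

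The regulators around the cyclins were followed in lists of 78 further genes, of which 76 were measured and 73 tested. In Rb1KO against WT over the times 22 rose and 9 fell, where 10.4% of all genes rose and 8.66% fell. The count that fell thus lies near that of all genes, and it includes Rb1 itself, whose fall follows from the genotype. The median difference was 0.10 against -0.07 for all genes. Of 6 CDK inhibitors tested, 3 rose and 1 fell: Cdkn2c (p18), which binds Cdk4 and Cdk6, rose by 1.20 ± 0.10 (limma adjusted p = 9.83e-09), Cdkn2d (p19) by 0.63 ± 0.09 and Cdkn1a (p21) by 0.65 ± 0.14, while Cdkn2b (p15) fell by 0.82 ± 0.22. Of the CDK-activating kinase, which switches CDKs on by phosphorylation, the kinase Cdk7 and its assembly factor Mnat1 both fell by 0.56 (SE 0.11 and 0.13), and Ccnh gave -0.34 ± 0.14 without passing. Of 4 genes that set or remove the inhibitory phosphates, the inhibitory kinases Pkmyt1 (0.90 ± 0.14) and Wee1 (0.60 ± 0.16) rose, as did the phosphatase Cdc25c (0.38 ± 0.09).

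Among 10 E2F and DP factors 5 rose and 2 fell. The repressors E2f8 (1.16 ± 0.10), E2f7 (1.09 ± 0.10) and E2f6 (0.88 ± 0.08) rose, as did the activator E2f1 (0.80 ± 0.15). All 3 mitotic genes tested rose, Cdk1 by 0.65 ± 0.08, Ccnf by 0.60 ± 0.12 and Ccnb2 by 0.30 ± 0.08. Of 13 genes of cyclin and inhibitor turnover 2 rose, Skp2, which marks p27 for breakdown (0.69 ± 0.12), and Cul1 (0.33 ± 0.09). The kinase partners gave 2 higher and 1 lower of 9, with Npat, a cyclin E-Cdk2 substrate at histone genes, at 0.47 ± 0.15, and the other cyclins and kinases 3 higher and 2 lower of 22. In DKO against p107KO 12 rose and 5 fell, the targeted Rb1 among the latter, where 4.49% of all genes rose and 2.64% fell. The risen included Cdkn2c (1.21 ± 0.14), Cdkn1a (1.23 ± 0.20), E2f8 (1.08 ± 0.15), Cdk1 (0.72 ± 0.11) and Pkmyt1 (0.81 ± 0.20). In p107KO against WT Rbl1 itself was the only listed gene to pass. In Rb1KO against WT Rbl1 rose over the times by 0.56 ± 0.14 (limma adjusted p = 0.0052). At single times its differences of 0.33, 0.60 and 0.74 did not pass (limma adjusted p = 0.819, 0.121 and 0.0894).

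With culture, Cdkn1a rose in WT by 5.77 ± 0.26 on the first day (limma adjusted p = 4.80e-13), Cdkn2b by 3.26 ± 0.40 and Ccng1, a p53 target, by 3.62 ± 0.22, while Cdkn1c fell by 4.77 ± 0.38. In all, 14 of the 73 rose and 8 fell, where 15.3% of all genes rose and 22.8% fell. On the second day 4 rose and 22 fell, where 13.4% of all genes rose and 12.1% fell, with a median of -0.20 against 0.03 for all genes. Those lower with Ccne1 and Ccna2 included Cdc25c (-1.75 ± 0.17), E2f8 (-1.45 ± 0.21), Pkmyt1 (-1.20 ± 0.29), Cdk1 (-1.01 ± 0.15) and Ccnb2 (-1.01 ± 0.16), while Cdkn1a (1.07 ± 0.29) and Cdkn1b, the inhibitor p27 (0.87 ± 0.23), were higher. The lists were drawn up with earlier results of these data known, so their counts describe and do not test the pathway.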

How the data were processed

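Total RNA from 27 samples was hybridised to Affymetrix Mouse Genome 430 2.0 arrays. The deposited values are MAS5 intensities on a linear scale, made with GCOS 1.4, per the submitters' processing notes; other steps are not given in the sources used here. Of 45037 probe sets, 34945 carried 1 gene symbol (34741 matched to GRCm38.p6 gene records) and were used. Each gene was represented by its brightest probe set, giving 18193 genes; the 40% with the lowest mean were left out. Values were analysed as log2(signal + 32) with limma 3.58.1 in R 4.3.3, with 12 group means, a variance trend and 15 residual degrees of freedom (prior 7.14). Averages over culture times weight each time equally; groups with 1 array borrow the spread of the others. Tests are two-sided over 10916 genes, and the fit was tested on simulated data. The members, comparisons and lists were chosen with earlier results of these data known. Named genes are the members, Rb1, Rbl1, the 2 genes most like each member, and up to 4 genes per list and comparison by adjusted p. Alternatives were other pseudocounts, filters, normalization, probe set rules, weights, sample sets, a replicate block, Y-linked signal and leaving out each array. Promoter sequences are from RefSeq. Replicate numbers were not taken as pairs.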

Additional observations from a re-analysis of the deposited data

Results flagged for a closer look

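Ccna2 in Rb1KO at 24 h had 1 array far from the rest of its group: replicate 2 read 16549 against 20204 to 20696 on the other 3, a gap that made up 0.892 of the group's range. The 10 members in the 2 groups with 4 or more arrays (Rb1KO at 0 h and 24 h) made 20 such sets, of which this was the only one so marked, and chance marks about 1 in 20. Without that array the Ccna2 difference from WT at 24 h was 0.45 (limma adjusted p = 0.0358) in place of 0.37 (limma adjusted p = 0.0863).

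The Rb1KO against WT difference itself changed between 0 h and 48 h for Ccne1, by 1.79 ± 0.27, and for Ccna2, by 0.84 ± 0.19. At 48 h the Rb1 signal does not check the genotype of the arrays, and both changes were smaller without the arrays that carry Y-linked signal (1.32 and 0.77).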

How the results depend on the processing

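Of 140 member results, 37 passed as reported, and 20 of these passed under every alternative that could be fitted. They include the rises of Ccne2, Ccne1, Ccna2 and Cdk2 in Rb1KO over the times (Ccne2 between 1.42 and 1.60, adjusted p at most 3.32e-05) and Ccne2 in each of its Rb1 comparisons except DKO against WT. In DKO against WT at 0 h, 1 member passed in place of 0 with the 60% filter, quantile normalization or only the groups compared. The same held with the replicate block and without the 4 least correlated arrays of 0 h and 24 h. With array weights 2 passed. DKO against Rb1KO gave 1 in place of 0 with the 60% filter and array weights. WT 48 h against 24 h gave 3 in place of 5 after quantile normalization, with only the groups compared and without the Y-linked arrays. With the mean over probe sets, Rb1KO against WT at 24 h gave 1 in place of 2, Rb1KO 48 h against 24 h 1 in place of 3, and the change from 0 h to 48 h 0 in place of 2, as it did without the Y-linked arrays. The same setting turned Ccne1 in WT from 0 h to 24 h to 0.01 and Ccnd3 in Rb1KO to -0.04.

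Leaving out each array gave 5 to 6 members for Rb1KO against WT over the times, 1 to 3 at 24 h, 3 to 5 at 48 h, 1 to 2 for the change from 0 h to 48 h and 0 to 1 for that from 24 h to 48 h. It gave 1 to 4 for DKO against p107KO and 0 to 1 for DKO against Rb1KO. For WT it gave 2 to 3 on the first day and 2 to 4 on the second, and for Rb1KO 6 to 7 and 1 to 4.

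Counts over all genes moved more. Over the settings other than leaving out 1 array they ran from 1049 to 3221 (2078 as reported) for Rb1KO against WT over the times, 27 to 166 (67) at 0 h, 276 to 1346 (848) at 24 h and 304 to 1774 (1137) at 48 h. They ran from 1 to 9 (2) for p107KO against WT, 9 to 391 (20) for DKO against WT, 4 to 694 (109) for DKO against Rb1KO and 506 to 1288 (778) for DKO against p107KO. For the changes of the difference they ran from 42 to 705 (385) and 0 to 46 (5), for WT from 2986 to 6605 (4156) and 2319 to 3918 (2777), and for Rb1KO from 4021 to 9367 (5696) and 1174 to 3197 (2304); some upper ends count probe sets. Quantile normalization moved the share of higher calls in DKO against Rb1KO from 59.6% to 46.7%. The replicate block gave 1894 genes and 6 members over the times. Same-numbered arrays had a median r of 0.026 (others -0.017), from -0.163 to 0.425, and 19 of 76 pairs were over 0.1. Since not every pair was, and the labels name no shared litter or day, the numbers were not taken as pairs. Of 24 arrays, 13 correlated best with an array of their own number. The share that chance would give was not worked out, so this count does not decide whether the numbers mark pairs. The Y-linked gene Eif2s3y read 3.0 at 0 h and 1404.7 at 24 h in Rb1KO replicate 2, and 762.5 and 29.2 in replicate 3. Arrays of those numbers at 0 h and 24 h were thus not from the same embryo. Causes of the shifts in the counts were not tested. Groups of 1 or 2 arrays limit what single times can show.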
